A study of Homo sapiens with 6 samples.

Results

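The 10 genes described here form the core of the Hippo pathway: the co-activators YAP1 and WWTR1 (the gene of the protein TAZ), their DNA-binding partners TEAD1 to TEAD4, the TEAD cofactor VGLL4, the kinases LATS1 and LATS2, and NF2, which encodes merlin. They were chosen by symbol for their known roles, and each symbol matched 1 of the 58735 gene rows in the files. All 10 passed the filter on low values (1 FPKM or more on average), as 11875 genes did. The symbol TAZ was not used, because in GENCODE 29 it belongs to a different gene, tafazzin.

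The libraries came from the human melanoma line MUM2B, stably carrying either LACTB (3 libraries) or an empty vector, EV (3 libraries), with no other allele or agent named. LACTB encodes a mitochondrial protein related to bacterial beta-lactamases and known as a tumour suppressor. The labels do not say which vector or promoter was used, whether the lines were clones or pools, or whether each replicate was its own culture. The p-values therefore reflect the spread among these 6 libraries and nothing wider, and that spread may be technical. LACTB itself stood at 173.9, 169.3 and 161.5 FPKM in LACTB cells, against 3.81, 3.385 and 4.71 FPKM in EV cells, so all 6 libraries matched their labels.

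In the Hippo pathway a kinase cascade ends in LATS1 and LATS2, which phosphorylate YAP and TAZ and thereby keep them out of the nucleus. Unphosphorylated YAP and TAZ bind TEAD proteins and switch on genes of growth, adhesion and matrix, and VGLL4 competes with them for TEAD. Merlin acts upstream, at the cell membrane, where it helps to activate LATS. Much of this control acts on protein phosphorylation and location, which RNA levels do not measure. In uveal melanoma, YAP is known as a driver downstream of mutant G proteins.

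Depth was 16978799 to 18395631 reads in genes per library, and each of the 10 genes rested on 177 (TEAD3) to 4522 (TEAD1) reads per library. EV replicate 3 stood apart from the others of its group: mitochondrially encoded genes took 3.61% of its reads, against 4.65% to 5.04% in the LACTB libraries and 5.54% and 5.62% in the other EV libraries. Of 18 melanocyte markers, 16 averaged under 1 FPKM, among them MITF, PMEL, MLANA and SOX10, and S100B, OCA2 and TRPM1 were listed at 0 in every library. Of these 16, MITF lay higher in LACTB cells without overlap (0.826 to 0.923 FPKM, against 0.586 to 0.742 FPKM in EV cells). TYRP1 did too (0.505 to 0.715 FPKM in LACTB cells, 0.252 to 0.350 FPKM in EV cells). The rest of the 16 did not separate by group, and none of the 16 was tested, being under the filter. The other 2 markers moved in opposite directions. GPNMB rose, at 6.90 to 8.28 FPKM in LACTB cells and 4.31 to 5.43 FPKM in EV cells. RAB27A fell, at 4.66 to 5.15 FPKM in LACTB cells and 5.85 to 6.17 FPKM in EV cells. All 8 genes of the leukocyte list, which also holds the haemoglobin gene HBB, and all 8 fibroblast markers averaged under 1 FPKM. The 8 endothelial markers summed to 55.0 to 60.1 FPKM in LACTB cells and 88.9 to 95.8 FPKM in EV cells, and the 8 epithelial markers to 304.5 to 311.6 FPKM in LACTB cells and 340.3 to 351.9 FPKM in EV cells. Of these, CDH5 fell, while TIE1 averaged 36.3 FPKM in both groups. In the epithelial list KRT8 and KRT18 fell, and KRT5 was listed at 0 throughout. The part of these shifts in the results on the Hippo core was not tested.

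WWTR1 and NF2 fell in LACTB cells and the other 8 genes did not pass the threshold of the main test. None of the 10 rose by that test. The test was limma on log2(FPKM + 1) over all 11875 tested genes, and a gene was called at a Benjamini-Hochberg adjusted p under 0.05. Over all tested genes 17.2% were called lower and 14.8% higher, 32.0% together, a share that the 2 of 10 did not exceed. At an unadjusted p under 0.05, 3 members lay higher (TEAD3, YAP1 and LATS1) and 3 lower (WWTR1, NF2 and VGLL4), against 19.9% and 22.5% of all tested genes, 42.3% together. With limma voom on the reads recovered from the FPKM values, YAP1 and LATS1 were called higher (19.8% of all tested genes) and WWTR1, NF2 and VGLL4 lower (16.4%). The median log2 fold change of the 10 was 0.01, against -0.01 for all tested genes, and the median size of the change was 0.16, against 0.14. These are bulk libraries, in which fewer cells that express a gene and less RNA per cell cannot be told apart.

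**Figure D1:**
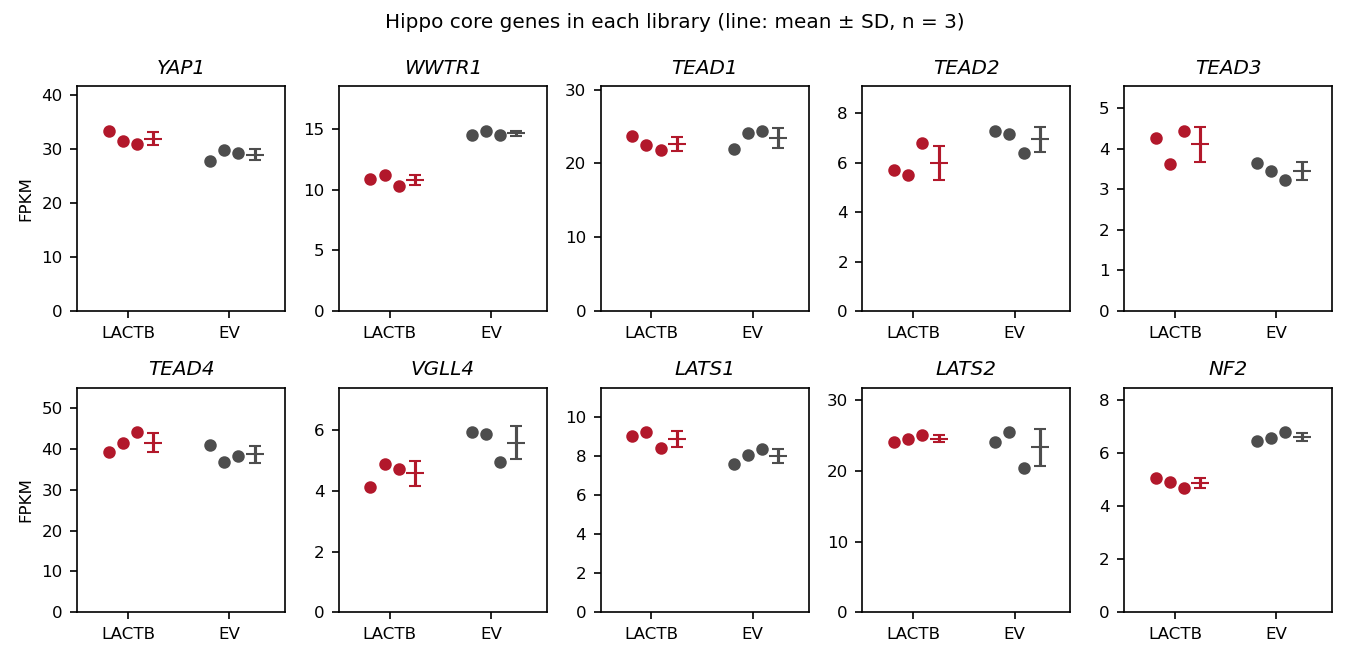
FPKM of each of the 10 genes in every library (points; LACTB in red, EV in grey), with the mean ± SD of each group (n = 3); the vertical axes start at 0 and differ between panels. WWTR1 and NF2 show a clear gap between the groups, and in TEAD1, TEAD2, TEAD3, TEAD4 and LATS2 the groups overlap.

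Because WWTR1 and NF2 moved together, and YAP1 is the paralogue of WWTR1, stretches from the 250 bases before their RefSeq start sites (GRCh38.p14) are shown, 5′ to 3′. Capitals mark the core TEAD motif GGAATG, searched on both strands (CATTCC on the other). Bases that lie in an exon of the gene itself were left out, so the WWTR1 stretches end 55 and 76 bases short of their starts. NF2 has another start, whose stretch lies within the one shown.
YAP1, chr11:102110197-102110446, plus strand: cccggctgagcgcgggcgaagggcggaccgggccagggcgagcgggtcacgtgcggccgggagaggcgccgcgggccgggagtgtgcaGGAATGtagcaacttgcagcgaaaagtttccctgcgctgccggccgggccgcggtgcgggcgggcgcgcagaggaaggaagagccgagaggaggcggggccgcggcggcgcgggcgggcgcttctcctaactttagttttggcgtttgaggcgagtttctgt
WWTR1, first start, chr3:149703329-149703523, minus strand: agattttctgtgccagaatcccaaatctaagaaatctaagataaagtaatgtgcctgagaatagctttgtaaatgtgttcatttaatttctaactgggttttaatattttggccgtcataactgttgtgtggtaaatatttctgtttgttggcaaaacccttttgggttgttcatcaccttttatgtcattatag
WWTR1, second start, chr3:149658102-149658275, minus strand: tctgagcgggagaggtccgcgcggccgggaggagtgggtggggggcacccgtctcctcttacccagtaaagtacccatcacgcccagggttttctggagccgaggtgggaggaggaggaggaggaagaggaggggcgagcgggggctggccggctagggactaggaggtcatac
NF2, chr22:29603306-29603555, plus strand: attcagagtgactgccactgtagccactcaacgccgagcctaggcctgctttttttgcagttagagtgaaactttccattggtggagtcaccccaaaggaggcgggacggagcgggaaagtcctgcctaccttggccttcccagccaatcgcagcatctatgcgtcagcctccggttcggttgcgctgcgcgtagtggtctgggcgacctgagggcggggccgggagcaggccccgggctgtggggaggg
The YAP1 stretch holds 1 match, whose first base lies 162 bases before the start, and the stretches of WWTR1 and NF2 hold none. Of the 10 genes, 8 matched the RefSeq table, with 16 start sites; TEAD1 and TEAD4 did not. In the 250 bases before those 16 starts, the motif occurred in 1 window, that of YAP1, and in 11.9% of 35116 such windows over all genes in the table. A match of these letters is a description, not a binding site.

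Of the pathway's co-activators, WWTR1 fell and YAP1 did not pass the adjusted threshold of the main test. WWTR1 (ENSG00000018408; GRCh38 chromosome 3, 149517235 to 149736714, minus strand) measured 10.9, 11.2 and 10.3 FPKM in LACTB cells, against 14.5, 14.8 and 14.5 FPKM in EV cells. The groups did not overlap, and the 3 EV libraries lay close together. Its mean fell by 26.2%, to 10.8 ± 0.429 FPKM in LACTB cells, against 14.6 ± 0.178 FPKM in EV cells (SD, n = 3 each). The log2 fold change was -0.41 (SE 0.043, 95% interval -0.51 to -0.31; limma, adjusted p = 0.000711). In size this was larger than 88.9% of the log2 fold changes of all tested genes. The call held in all 17 alternative ways of processing the data (adjusted p 1.4e-05 to 0.00827).

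YAP1 (ENSG00000137693; chromosome 11, 102110461 to 102233423, plus strand) measured 33.4, 31.5 and 31.0 FPKM in LACTB cells, against 27.85, 29.9 and 29.3 FPKM in EV cells. All 3 LACTB libraries lay above all 3 EV libraries, by a narrow gap. The log2 fold change of 0.14 had a 95% interval of 0.03 to 0.24 and did not pass the threshold (limma, adjusted p = 0.0632). It passed with median-of-ratios scaling (limma, adjusted p = 0.049), quantile normalization (limma, adjusted p = 0.03) and voom (adjusted p = 0.0157), and ran to 0.178 over 17 alternatives.

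YAP1 RNA was more abundant than WWTR1 RNA in all 6 libraries. The ratio of YAP1 to WWTR1, both per length in FPKM, was 3.08, 2.82 and 3.01 in LACTB cells, against 1.92, 2.02 and 2.02 in EV cells. The groups did not overlap, and the mean ratio was 2.97 ± 0.133 in LACTB cells and 1.985 ± 0.0572 in EV cells (SD, n = 3 each), a log2 difference of 0.58. The exact two-sided permutation test gave p = 0.1, the smallest value that 3 against 3 allows, and 0.267 after adjustment over the 8 ratios, sums and shares tested. The sum of both co-activators stood at 42.8 ± 1.45 FPKM in LACTB cells and 43.6 ± 1.19 FPKM in EV cells (SD, n = 3 each), with overlapping libraries.

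**Figure D2:**
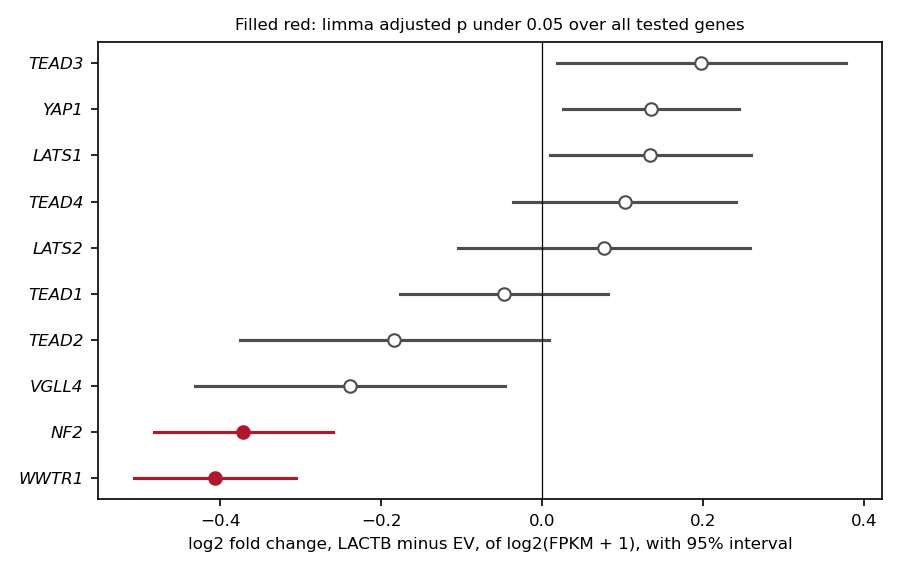
Log2 fold change of each gene (LACTB minus EV, on log2(FPKM + 1)) with its 95% limma interval; filled red marks an adjusted p under 0.05 over all tested genes. The intervals of WWTR1 and NF2 lie farthest from 0, and those of YAP1, TEAD3, LATS1 and VGLL4 also leave out 0 without passing the adjusted threshold.

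Among the TEAD factors no gene passed the threshold. TEAD4 was the most abundant of the 10 genes, at 39.2, 41.4 and 43.97 FPKM in LACTB cells, against 40.9, 36.7 and 38.2 FPKM in EV cells. TEAD1 followed at 23.7, 22.5 and 21.8 FPKM in LACTB cells, against 21.9, 24.1 and 24.4 FPKM in EV cells. In both genes the groups overlapped, with log2 fold changes of 0.10 for TEAD4 (95% interval -0.04 to 0.24) and -0.05 for TEAD1 (95% interval -0.18 to 0.08). These intervals leave out a change of the size seen in WWTR1 in either gene (limma, adjusted p = 0.23 for TEAD4 and 0.546 for TEAD1).

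TEAD2 and TEAD3 were lower in abundance and less precisely measured. TEAD2 stood at 5.71, 5.52 and 6.79 FPKM in LACTB cells, against 7.29, 7.16 and 6.39 FPKM in EV cells. LACTB replicate 3 lay inside the EV range (log2 fold change -0.18, 95% interval -0.38 to 0.01; limma, adjusted p = 0.131), and without that library TEAD2 was called lower (log2 fold change -0.26; limma, adjusted p = 0.0411). TEAD3, the lowest of the 10 in EV cells, stood at 4.26, 3.625 and 4.435 FPKM in LACTB cells, against 3.66, 3.46 and 3.22 FPKM in EV cells. Here LACTB replicate 2 lay inside the EV range (log2 fold change 0.20, 95% interval 0.02 to 0.38; limma, adjusted p = 0.0913), and without it TEAD3 was called higher (log2 fold change 0.27; limma, adjusted p = 0.042). The spread between the LACTB libraries was 11.4% of the mean in TEAD2 and 10.4% in TEAD3, of which counting alone would give 5.60% and 6.70% at 190 to 364 reads.

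The total TEAD level overlapped between the groups. The sum over the 4 genes was 72.9, 73.0 and 77.0 FPKM in LACTB cells, against 73.8, 71.4 and 72.2 FPKM in EV cells (log2 difference 0.04; exact two-sided permutation p = 0.4). TEAD4 made up 55.9% ± 1.81 of it in LACTB cells and 53.2% ± 2.06 in EV cells, and TEAD1 30.55% ± 2.13 in LACTB cells and 32.4% ± 2.35 in EV cells (SD, n = 3 each). TEAD2 held 8.07% ± 0.664 of the sum in LACTB cells and 9.58% ± 0.645 in EV cells, and TEAD3 held 5.52% ± 0.487 in LACTB cells and 4.75% ± 0.259 in EV cells. Neither share overlapped between the groups, but both gaps were very narrow. For TEAD2 the closest were LACTB replicate 3 at 8.82% and EV replicate 3 at 8.84%. For TEAD3 they were LACTB replicate 2 at 4.964% and EV replicate 1 at 4.958%. Each share gave an exact permutation p = 0.1, the smallest possible. Adjusted, this was 0.2 over the 4 shares and 0.267 over the 8 ratios, sums and shares tested.

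VGLL4 (ENSG00000144560; chromosome 3, 11556070 to 11771350, minus strand) measured 4.12, 4.89 and 4.70 FPKM in LACTB cells, against 5.92, 5.87 and 4.95 FPKM in EV cells. The groups did not overlap, but EV replicate 3, the library that stood apart, lay just above the LACTB libraries. The log2 fold change was -0.24 (95% interval -0.43 to -0.05) and did not pass the threshold (limma, adjusted p = 0.0632). Without EV replicate 3 it was -0.31 and VGLL4 was called lower (limma, adjusted p = 0.0245). VGLL4 was also called lower by voom (adjusted p = 0.022) and with library weights (limma, adjusted p = 0.0357). Among genes averaging at least 5 FPKM it was called lower too (limma, adjusted p = 0.0452). It averaged 4.57 FPKM in LACTB cells and 5.58 FPKM in EV cells, so it passed that filter only through EV cells. That call adds no support. Of the exon length of VGLL4, 22.1% overlaps exons of ATG7 on the opposite strand, a gene at 5.65 FPKM in LACTB cells and 5.34 FPKM in EV cells. The use of strand in counting is not given in the sources used here, so reads in that stretch cannot be assigned with certainty. Relative to its competitors, VGLL4 stood at 0.0931, 0.115 and 0.114 times the sum of YAP1 and WWTR1 in LACTB cells, against 0.14, 0.131 and 0.113 times in EV cells, with overlap (exact permutation p = 0.3).

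**Figure D3:**
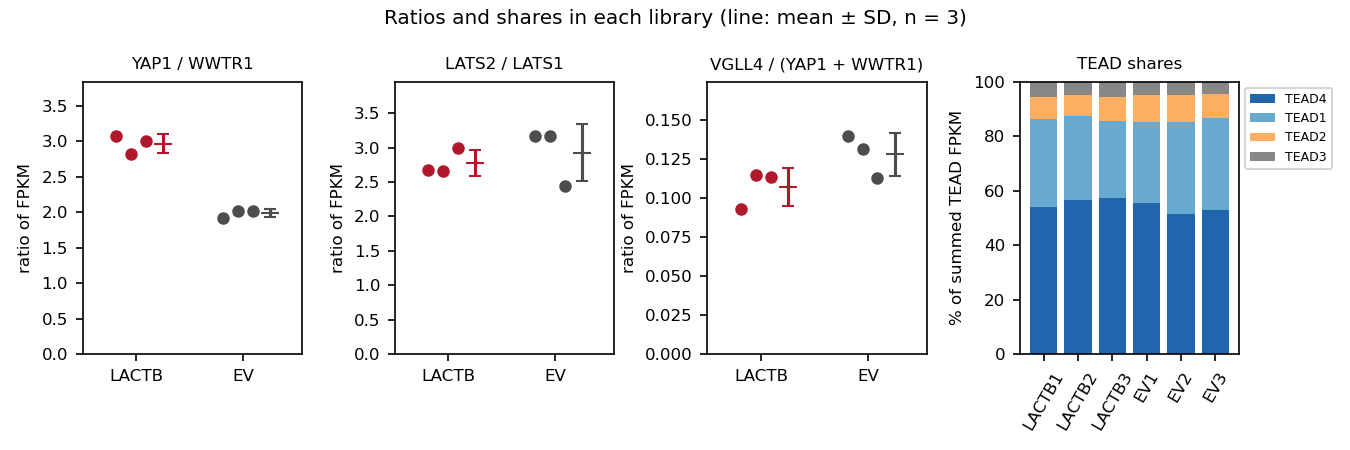
Ratios of FPKM in every library (points; LACTB in red, EV in grey) with the mean ± SD of each group (n = 3), and, at right, the share of each TEAD gene in the summed TEAD level of each library. The YAP1 to WWTR1 ratio is 2.82 to 3.08 in the LACTB libraries and 1.92 to 2.02 in the EV libraries, while TEAD4 and TEAD1 make up most of the TEAD RNA in all 6 libraries.

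Of the kinases, LATS2 was the more abundant. LATS1 (ENSG00000131023; chromosome 6, 149658153 to 149718256) measured 9.03, 9.21 and 8.40 FPKM in LACTB cells, against 7.62, 8.04 and 8.35 FPKM in EV cells. The groups touched without overlap (log2 fold change 0.13, 95% interval 0.01 to 0.26; limma, adjusted p = 0.097), and LATS1 was called higher by voom (adjusted p = 0.0313) and with library weights (limma, adjusted p = 0.0382). LATS2 (ENSG00000150457; chromosome 13, 20973032 to 21061547) measured 24.1, 24.5 and 25.1 FPKM in LACTB cells, against 24.1, 25.4 and 20.4 FPKM in EV cells. The LACTB libraries lay within the EV range, and only EV replicate 3 was low (log2 fold change 0.08, 95% interval -0.10 to 0.26; limma, adjusted p = 0.49). Without that library the LATS2 difference was -0.01 on the log2 scale (limma, adjusted p = 0.863). The ratio of LATS2 to LATS1 was 2.77 ± 0.185 in LACTB cells and 2.93 ± 0.415 in EV cells (SD, n = 3 each; exact permutation p = 0.8).

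NF2 (ENSG00000186575; chromosome 22, 29603556 to 29698598, plus strand), a tumour suppressor gene, was the second gene that fell. It measured 5.04, 4.91 and 4.67 FPKM in LACTB cells, against 6.45, 6.57 and 6.76 FPKM in EV cells. The gap between the groups was wider than the range within either. Its mean fell by 26.1%, to 4.87 ± 0.188 FPKM in LACTB cells, against 6.59 ± 0.160 FPKM in EV cells (SD, n = 3 each; log2 fold change -0.37, SE 0.047, 95% interval -0.48 to -0.26; limma, adjusted p = 0.00151). All 17 alternatives kept this call (adjusted p 0.00015 to 0.0155). In the alternative with a minimum of 5 FPKM, NF2 passed the filter only through EV cells. No exon of another annotated gene overlaps the exons of NF2, whereas 9.45% of the exon length of WWTR1 overlaps its antisense gene WWTR1-AS1, which had at most 9 reads in any library.

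The order of the 10 levels was nearly the same in both groups. In LACTB cells it ran TEAD4, YAP1, LATS2, TEAD1, WWTR1, LATS1, TEAD2, NF2, VGLL4 and TEAD3, and only NF2 with VGLL4 and VGLL4 with TEAD3 overlapped as neighbours. In EV cells TEAD1 stood above LATS2, and those neighbours overlapped, as did TEAD2 with NF2. TEAD4 lay at the 91.3rd percentile of all tested genes by mean FPKM, YAP1 at the 88.2nd, WWTR1 at the 69.9th, NF2 at the 45.5th and TEAD3 at the 33.3rd. Over libraries, 5 of the 10 genes did not overlap between the groups (YAP1 and LATS1 higher; WWTR1, VGLL4 and NF2 lower), against 47.4% of all tested genes.

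**Figure D4:**
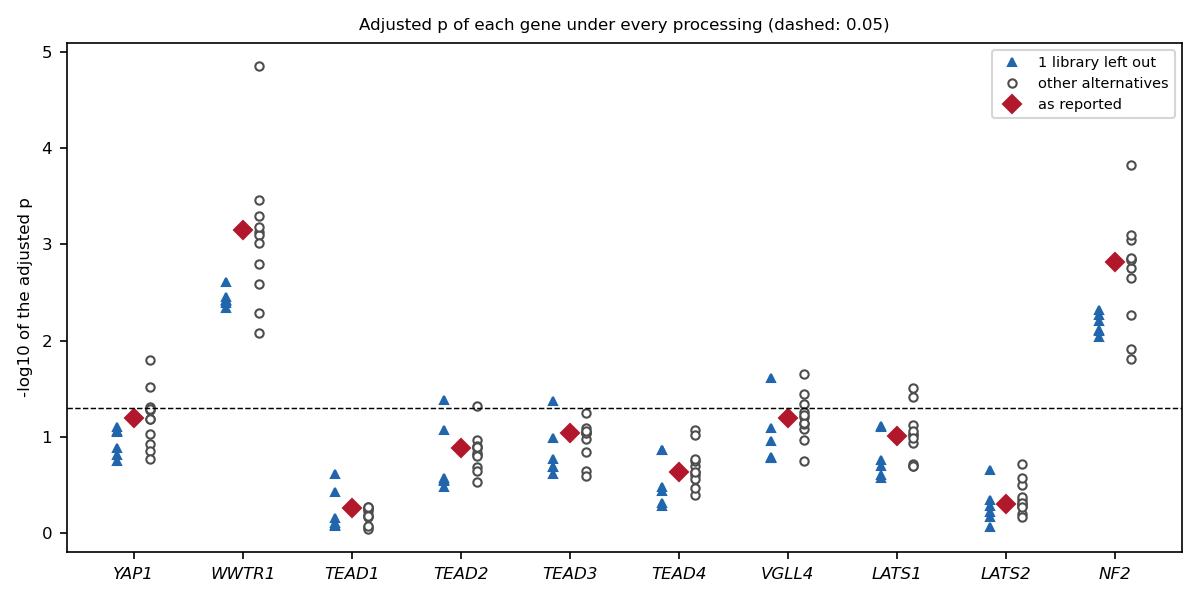
Adjusted p of each gene (vertical axis: -log10; dashed line: 0.05) as reported (red diamond), with 1 library left out (blue triangles) and under the other alternatives (open circles). All points of WWTR1 and NF2 lie above the line, those of TEAD1, TEAD4 and LATS2 all lie below it, and YAP1, TEAD2, TEAD3, VGLL4 and LATS1 have points on both sides.

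Among the genes that act on the core, kinases upstream of LATS changed little. Of 16 tested kinases and adaptors 2 rose and none fell, against 32.0% of all tested genes called. The list also holds STK38 and STK38L, which are not kinases upstream of LATS, and neither was called. At an unadjusted p under 0.05, 2 lay higher and 2 lower (19.9% and 22.5% of all tested genes). Voom called 2 higher and 0 lower (19.8% and 16.4% of all tested genes). The median log2 fold change was 0.01. MAP4K4, a kinase that can phosphorylate LATS directly, stood at 53.5 ± 0.874 FPKM in LACTB cells and 43.4 ± 0.767 FPKM in EV cells (SD, n = 3 each; log2 fold change 0.30; limma, adjusted p = 0.00129). STK3, which encodes the Hippo kinase MST2, stood at 4.55 ± 0.0778 FPKM in LACTB cells and 3.95 ± 0.177 FPKM in EV cells (SD, n = 3 each; limma, adjusted p = 0.0432), a call lost when any 1 of the 6 libraries was left out (limma, adjusted p 0.0552 to 0.128). Of the inhibitors of the kinase cassette, 2 of 15 rose and 1 fell (14.8% and 17.2% of all tested genes), with a median of 0.03. The 1 that fell, RASSF5, passed the filter of 1 FPKM only through EV cells, where it was higher. AJUBA, a LIM protein that restrains LATS, rose 1.17-fold and STRN4, a scaffold of the STRIPAK phosphatase complex, 1.26-fold (limma, adjusted p = 0.006 and 0.00774). RASSF5, a binding partner of the MST kinases that the list holds without being an inhibitor, stood at 0.912 ± 0.0576 FPKM in LACTB cells and 1.39 ± 0.119 FPKM in EV cells (SD, n = 3 each; limma, adjusted p = 0.0226), a call lost without any 1 of 5 libraries (limma, adjusted p 0.0515 to 0.0767).

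Scaffolds and junction proteins divided, with 4 of 11 tested members higher and 3 lower (median log2 fold change 0.05), against 14.8% higher and 17.2% lower among all tested genes. WWC3, of the family of the LATS activator KIBRA, rose 1.47-fold to 6.60 ± 0.0586 FPKM in LACTB cells, against 4.50 ± 0.354 FPKM in EV cells (SD, n = 3 each; limma, adjusted p = 0.00134). PTPN14, a phosphatase that binds YAP, stood at 7.14 ± 0.366 FPKM in LACTB cells and 9.89 ± 0.958 FPKM in EV cells (SD, n = 3 each; limma, adjusted p = 0.00569). The list also holds the casein kinases CSNK1E and CSNK1D, which are not scaffolds but prime YAP and TAZ for breakdown, and these went apart: CSNK1E rose 1.20-fold (limma, adjusted p = 0.0125), while CSNK1D stood at 12.5 ± 0.461 FPKM in LACTB cells and 14.8 ± 0.81 FPKM in EV cells (SD, n = 3 each; limma, adjusted p = 0.0153). The CSNK1D call was lost without LACTB replicate 2 (limma, adjusted p = 0.0576), and the counts of the list were then 2 higher and 1 lower. AMOT, which encodes angiomotin, was listed at 0 in every library.

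Of 14 tested genes for the retention and turnover of YAP and TAZ, 6 fell and none rose, against 17.2% lower and 14.8% higher among all tested genes, with a median log2 fold change of -0.03. The direction of the list as a whole was not tested. At an unadjusted p under 0.05 limma also gave 6 lower and 0 higher (22.5% and 19.9% of all tested genes). Voom called 5 lower and 0 higher (16.4% and 19.8% of all tested genes). With single libraries left out limma called 4 to 5 lower. SFN, whose product holds phosphorylated YAP in the cytoplasm, stood at 75.6 ± 3.835 FPKM in LACTB cells and 112.2 ± 9.85 FPKM in EV cells (SD, n = 3 each; log2 fold change -0.56; limma, adjusted p = 0.00152). Its relatives YWHAH, YWHAE and, narrowly, YWHAQ (limma, adjusted p = 0.0468) also fell. YWHAZ, the most abundant of them, averaged 212.1 FPKM in LACTB cells and 214.7 FPKM in EV cells and was not called. Neither were YWHAB and YWHAG (log2 fold changes 0.022 and 0.005). PPP1CB, a catalytic subunit of protein phosphatase 1, which can remove phosphate from YAP and TAZ, stood at 21.1 ± 0.292 FPKM in LACTB cells and 27.7 ± 1.13 FPKM in EV cells (SD, n = 3 each; limma, adjusted p = 0.00095), and PPP1CC fell too. PPP1CA, another catalytic subunit, was not called (log2 fold change -0.03). Of 4 tested TEAD cofactors besides VGLL4, VGLL3 alone was called, against 32.0% of all tested genes. VGLL3 stood at 4.81 ± 0.323 FPKM in LACTB cells and 7.75 ± 0.565 FPKM in EV cells (SD, n = 3 each). Its log2 fold change was -0.59 (limma, adjusted p = 0.000938). VGLL1 was listed at 0 in every library.

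**Figure D5:**
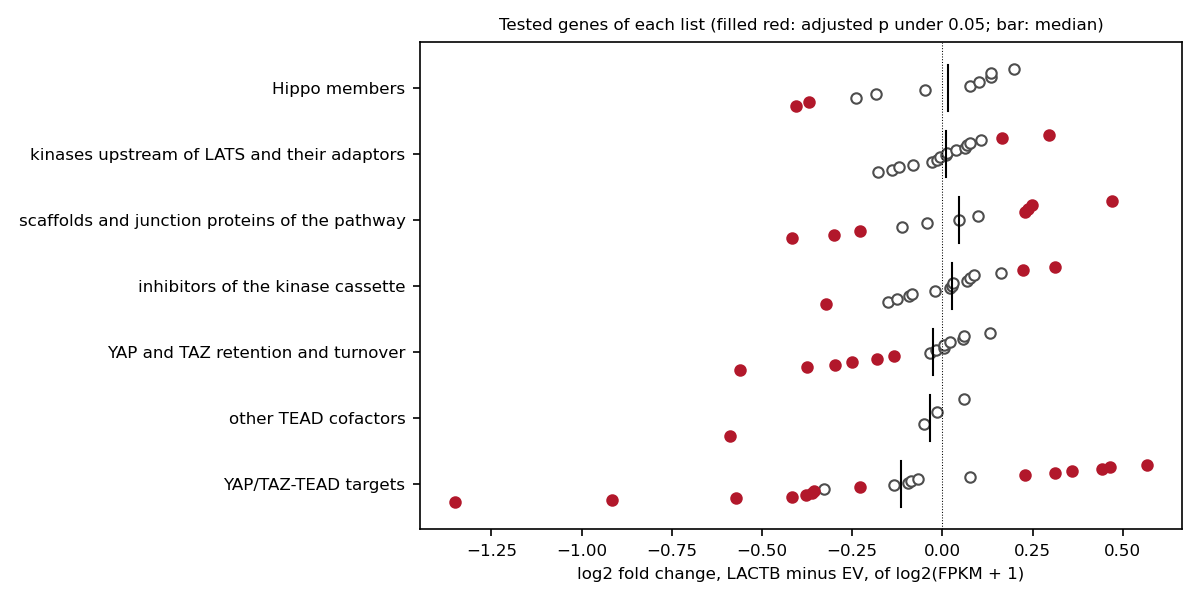
Log2 fold change (LACTB minus EV, on log2(FPKM + 1)) of every tested gene of the 10 core genes and of 6 further lists, each gene a point; filled red marks an adjusted p under 0.05 and the bar the median of the list. Medians lie near 0 in all lists but the targets, where the median is -0.12. The 6 called genes of the retention and turnover list lie below 0, and the targets spread widest.

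Target genes spread more than the core did. Of 20 tested targets 6 rose and 8 fell (median log2 fold change -0.12), from CTGF at -1.35 to ANKRD1 at 0.57, the last named for its value. Among all tested genes 14.8% rose and 17.2% fell. CYR61, the most abundant target, averaged 358.0 FPKM in LACTB cells and 676.3 FPKM in EV cells (limma, adjusted p = 2.31e-05). F3 averaged 61.1 FPKM in LACTB cells and 44.0 FPKM in EV cells (limma, adjusted p = 0.000192). GADD45A averaged 78.0 FPKM in LACTB cells and 57.1 FPKM in EV cells (limma, adjusted p = 0.00048). AMOTL2, which rose, and PTPN14, which fell, were also counted among the scaffolds and junction proteins. LATS2, which is both a core kinase and a target, was among the 6 that did not pass the adjusted threshold. At an unadjusted p under 0.05 limma gave 6 targets higher and 10 lower (19.9% and 22.5% of all tested genes). NUAK2, among those lower, averaged 0.895 FPKM in LACTB cells and 1.39 FPKM in EV cells and passed the filter only through EV cells. With voom, 6 were called higher and 9 lower (19.8% and 16.4% of all tested genes).

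The genes whose levels followed the co-activators most closely over the 6 libraries were sought among 6979 others with a mean of at least 5 FPKM. For WWTR1 they were SVIP (Pearson's r = 0.998), PRKACB (0.998) and FGF5 (0.9975), which averaged 7.13, 14.85 and 12.1 FPKM in LACTB cells and 9.75, 24.2 and 15.95 FPKM in EV cells. For YAP1 they were COG3 (0.997), BLOC1S6 (0.991) and BTBD3 (0.991), each with a higher mean in LACTB cells. Points from 2 groups of 3 share the group difference, so these values describe likeness over these libraries only.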

How the data were processed

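RNA was measured in 6 libraries (3 LACTB, 3 EV), made, per the labels' protocols, from total RNA with a NEBNext Ultra kit and read as 150 bp pairs on a NovaSeq. The submitters' processing notes list GRCh38, DESeq2 1.16.1, featureCounts 1.5.0-p3 and HISAT2 2.0.5, with no role or order. The authors deposited FPKM per gene and library, so length and library size were already divided out. All 58735 gene IDs matched GENCODE 29, from which coordinates and exon lengths were taken. FPKM times exon length was divided by a step fitted for each library (55.1 to 58.1). The result was a whole number of reads (tolerance 0.1) for 100% of values above 0. The recovered reads rest on this step.

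Differential expression used limma 3.58.1 in R 4.3.3 (variance trend) on log2(FPKM + 1), which understates changes of low genes, for genes averaging at least 1 FPKM. Ratios and shares used exact permutation tests in SciPy 1.17.1. The fit was tested on simulated data. No replicates agreed within sampling noise (chi-square 2.11 to 14.9 per degree of freedom). Named genes were the 10 core genes, LACTB, per list up to 2 rising and 2 falling genes of smallest p, and the 3 genes most like YAP1 or WWTR1; others named were chosen after their values were seen. Members and lists were chosen with earlier results of these data known. Alternatives were a pseudocount of 0.1, other filters, TPM, median-of-ratios and quantile scaling, other variance models, library weights, voom on recovered reads, a replicate block and each library left out.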

Additional observations from a re-analysis of the deposited data

How the results depend on the processing

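WWTR1 and NF2 stayed lower and past the threshold in every alternative run. For the others the causes were not tested. The count of core genes called higher was 1 with median-of-ratios scaling, quantile normalization and library weights, 2 with voom and 0 to 1 with single libraries left out; the count lower was 4 with library weights. YAP1 passed at a log2 fold change of 0.15 with median-of-ratios scaling, 0.19 with quantile normalization and 0.17 with voom. VGLL4 passed at -0.23 with library weights and -0.25 with voom, and ran from -0.31 to -0.18 with single libraries left out. With a minimum of 5 FPKM it passed at -0.24, but entered that run only through its level in EV cells. LATS1 passed at 0.16 with library weights and 0.18 with voom, and TEAD2 at -0.24 with library weights. With single libraries left out, TEAD2 ran from -0.26 to -0.13, TEAD3 from 0.15 to 0.27 and LATS2 from -0.0118, without EV replicate 3, to 0.139. Over all genes, 1155 rose with a minimum of 5 FPKM (fewer genes tested) and 1115 to 1505 with single libraries left out, and 1295 fell as TPM. The replicate numbers did not pair the samples (correlation of same-numbered deviations -0.13 to 0.02); with the replicate block 1155 genes rose and 1324 fell, WWTR1 and NF2 kept their calls, and the YAP1 to WWTR1 difference could not go below p = 0.25. TEAD3 gave no value at a minimum of 5 FPKM. Counting error limits TEAD3 and TEAD2 most.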
